A study of Mus musculus with 8 samples.

Results

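Cells that expressed late genes of granule neuron differentiation were examined in 1 primary and 1 relapsed mouse medulloblastoma. A cell was included when at least 3 of the 7 genes Neurod2, Grin2b, Rbfox3, Snap25, Gap43, Syt1 and Gng3 had at least 1 UMI (a molecule counted once by its barcode) and at most 2 of 10 mitotic genes did. The mitotic genes were Top2a, Ube2c, Cdk1, Ccnb1, Hmmr, Tpx2, Plk1, Aurkb, Nusap1 and Prc1. This chose 4440 of 16933 cells, 2286 in the primary library and 2154 in the relapsed one. The cells were thus chosen by the detection of these genes, and no value of those genes is read as a finding. They are called late-gene cells below, because the rule reads detection of a few genes and several defining genes of the finished granule neuron were at or near 0 UMIs, as shown further on.

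Granule neurons of the cerebellum are born from precursors that express Atoh1 and divide in response to Sonic hedgehog, the ligand of the receptor Ptch1. On leaving the cell cycle they switch to Neurod1 and the adhesion molecule Cntn2, extend axons, migrate inwards and then build synapses, with NMDA receptors that first contain Grin2b. Loss of Ptch1 leaves the pathway active, and the tumours that follow hold dividing precursor-like cells together with cells that have begun to differentiate.

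Both tumours came from mice deficient in Patched 1 and the cells were sorted by flow cytometry after papain dissociation. The groups were a primary tumour and a tumour that had relapsed, sampled at 3 weeks, with 1 library each. The labels give no age, sex, strain, Cre driver, number of animals or gate of the sort for these libraries, and no treatment before the relapse. For the relapsed library, the description label says primary tumour, while the title and source say relapsed, and these were followed. With 1 library per group no test was possible, and library and relapse cannot be told apart.

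The libraries held 56109842 and 69317005 UMIs in passing cells, primary first. Late-gene cells had a median of 4863.5 UMIs and 2042 genes in the primary library and 5850.5 UMIs and 2179.5 genes in the relapsed one. Non-members were deeper, with medians of 5666.5 and 8214 UMIs. The libraries shared 93 barcodes, of which 8 were late-gene cells in both. Xist, the RNA of the inactive X chromosome, stood at 1643 CPM (UMIs summed over cells and scaled to 1000000) in primary and 7.36 in relapsed late-gene cells with fewer than 3 markers of any other class. Over all relapsed late-gene cells Xist was at 56.4 CPM, with 80.0% of its UMIs in cells with at least 3 pituitary markers. At least 2 Xist UMIs were found in 38 relapsed late-gene cells, 32 of them with pituitary markers and 30 without a Y-linked UMI. A UMI of a Y-linked gene was found in 1491 of 2154 relapsed late-gene cells (69.2%) and in 0 primary ones, so sex, animal and relapse cannot be told apart.

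The share of late-gene cells was a little higher in the relapsed library at full depth and depended strongly on depth. They made up 25.1% of primary cells (2286 of 9094, exact 95% interval 24.2% to 26.0%) and 27.5% of relapsed cells (2154 of 7839, 26.5% to 28.5%). When each cell was thinned to 2000 UMIs the shares were 10.7% and 11.3%, with 0 cells left out for shallowness. Of the cells chosen after thinning, 94.2% in the primary library (916 of 972) and 89.7% in the relapsed one (791 of 882) had also been chosen at full depth. Thinning cannot add a late gene, so the rest were cells above the mitotic limit at full depth. They met that limit only because mitotic genes were lost by thinning. The shares of 10.7% and 11.3% thus include such cells, which were a larger part in the relapsed library. Cells chosen at both depths were 916 of 9094 primary and 791 of 7839 relapsed cells. Requiring at least 5 of the 7 genes left 3.77% and 6.89%, or 343 and 540 cells. Intervals here and below cover counting error only.

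**Figure D1:**
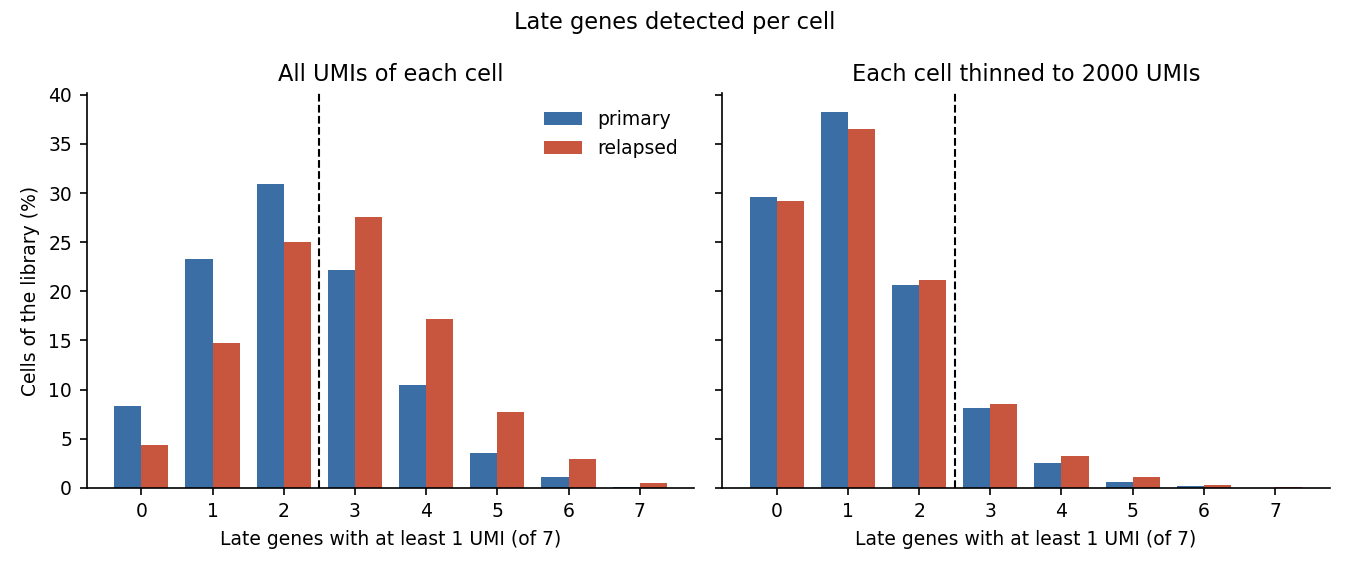
Share of cells (%) by how many of the 7 late genes had a UMI, in the primary (blue) and relapsed (red) library, with all UMIs (left) and with each cell thinned to 2000 UMIs (right). The dashed line marks the threshold of 3 genes, and thinning moves both libraries to the left. The bars include cells with any number of mitotic genes. With the mitotic limit added, itself read on the thinned counts, 10.7% and 11.3% of all cells met the rule after thinning.

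The rule was met mostly through abundant genes. Rbfox3, Snap25, Gap43 and Gng3 alone sufficed in 88.1% of primary and 88.3% of relapsed late-gene cells. All of Neurod2, Grin2b and Rbfox3, the genes given as markers of the class, had a UMI in 3.41% and 10.6%. Cells just inside the threshold, with 3 genes, numbered 1280 and 1023, and those just outside, with 2 genes, numbered 1702 and 1032. Neurod1 stood at 393 and 281 CPM just inside and at 212 and 144 just outside. Gap43, itself a gene of the rule, stood at 612 and 340 just inside and at 437 and 220 just outside, a difference that the rule itself favours.

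Some cells of another class also met the rule. Among cells with at least 3 markers of microglia and macrophages, which should lack these genes, 39 of 357 met it in the primary library (10.9%, 7.88% to 14.6%) and 1 of 34 in the relapsed library (2.94%). Their median depths were 6606 and 11333.5 UMIs, and the parts of free RNA and doublets were not tested. Neurod2 was detected in 21.8% of primary late-gene cells, 2.91% of non-members and 5.32% of the microglia class. In the relapsed library Neurod2 was detected in 27.1%, 7.46% and 0% of the same kinds of cell. Thinned to 2000 UMIs, Neurod2 was found in 11.8%, 0.940% and 1.96% of primary cells and in 13.0%, 1.88% and 0% of relapsed cells in that order. For Gap43 the background was high, at 44.0% of the primary microglia class against 96.2% of late-gene cells.

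The genes that chose the cells are given as a description, in CPM with exact Poisson 95% intervals. Neurod2, a basic helix-loop-helix factor of differentiating neurons (mm10 chr11:98325415-98329648, minus strand), stood at 56.9 CPM (52.7 to 61.3) in primary and 64.6 (60.5 to 68.9) in relapsed late-gene cells. Grin2b, an NMDA receptor subunit (chr6:135713233-136173511, minus strand), stood at 46.0 and 81.0 (76.4 to 85.9). Rbfox3, the splicing factor known as NeuN (chr11:118489762-118911597, minus strand), stood at 229 and 210. These levels follow from the choice of the cells. Snap25, part of the vesicle fusion machinery, stood at 220 and 169, and Gap43, of growing axons, at 800 and 570. Gng3, a G protein subunit of neurons, stood at 238 and 399, and Syt1, the calcium sensor of release, at 18.2 and 15.6.

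For Neurod2 the sequence before the start of the gene is shown because factors of its family, Neurod1 among them, bind E-boxes. RefSeq promoters were matched for 4 of the 7 genes. The motif CAGATG was searched on both strands of the 250 bases upstream, and found in 1 of these 4 genes. The capitals mark that match, at position -118 in the direction of the gene (GRCm38.p6, chr11:98329646-98329895, minus strand). The same motif is in 14.4% of all 32851 promoters of this length, and in at least 1 promoter of 16.3% of 27025 genes. A match thus describes the letters and not a bound site.
Neurod2: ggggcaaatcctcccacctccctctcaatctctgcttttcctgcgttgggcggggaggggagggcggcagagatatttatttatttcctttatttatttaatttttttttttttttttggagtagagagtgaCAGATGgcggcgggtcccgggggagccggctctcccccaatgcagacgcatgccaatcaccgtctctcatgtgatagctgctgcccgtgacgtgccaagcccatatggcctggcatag

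Markers of the granule lineage were abundant in late-gene cells, and of the genes of its last stage some were near 0 and others well measured. Zic1, a zinc finger factor of the lineage, stood at 826 CPM in primary and 716 in relapsed cells. Pax6 stood at 355 and 277, and Barhl1 at 556 and 719. Neurod1 stood at 601 and 597, above its level in cells with at least 2 of the early genes Neurod1, Cntn2, Nhlh1 and Nhlh2 that missed the late rule (372 and 316). Nhlh1 was about as high in those early cells as in late-gene cells, at 190 and 116 against 200 and 110. Of the late-gene cells, 76.5% and 72.7% had a UMI of at least 2 of these 4 early genes.

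Gabra6, the GABA receptor subunit of finished granule neurons, had 0 UMIs in the late-gene cells of both libraries, which held 12270299 and 14168550 UMIs. Gabrd, its partner, had 1 and 3 UMIs, Grin2c, the NMDA subunit that replaces Grin2b, had 2 and 1, and Slc17a7, a vesicular glutamate transporter, had 2 and 8. Cbln3 had 11 and 15. Kcnk1, a potassium channel, was the highest of the 15 genes listed for this stage, at 132 and 183 CPM. Reln, a secreted guide of migration, stood at 122 and 80.1, and Cbln1, a synapse organiser, at 25.9 and 52.8. Summed over the 15 genes, the list stood at 371 and 456 in late-gene cells and 226 and 257 in the other granule lineage cells. Against other lineage cells that are not mitotic, the 4 of its genes that reached a level of 20 were higher in both libraries, 1 past 2-fold (Kcnk1), with a median log2 ratio of 0.62. Gabra6, Gabrd, Grin2c and Slc17a7, which define the finished granule neuron, thus had between 0 and 8 UMIs each, beside a measured level of other genes of that stage.

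**Figure D2:**
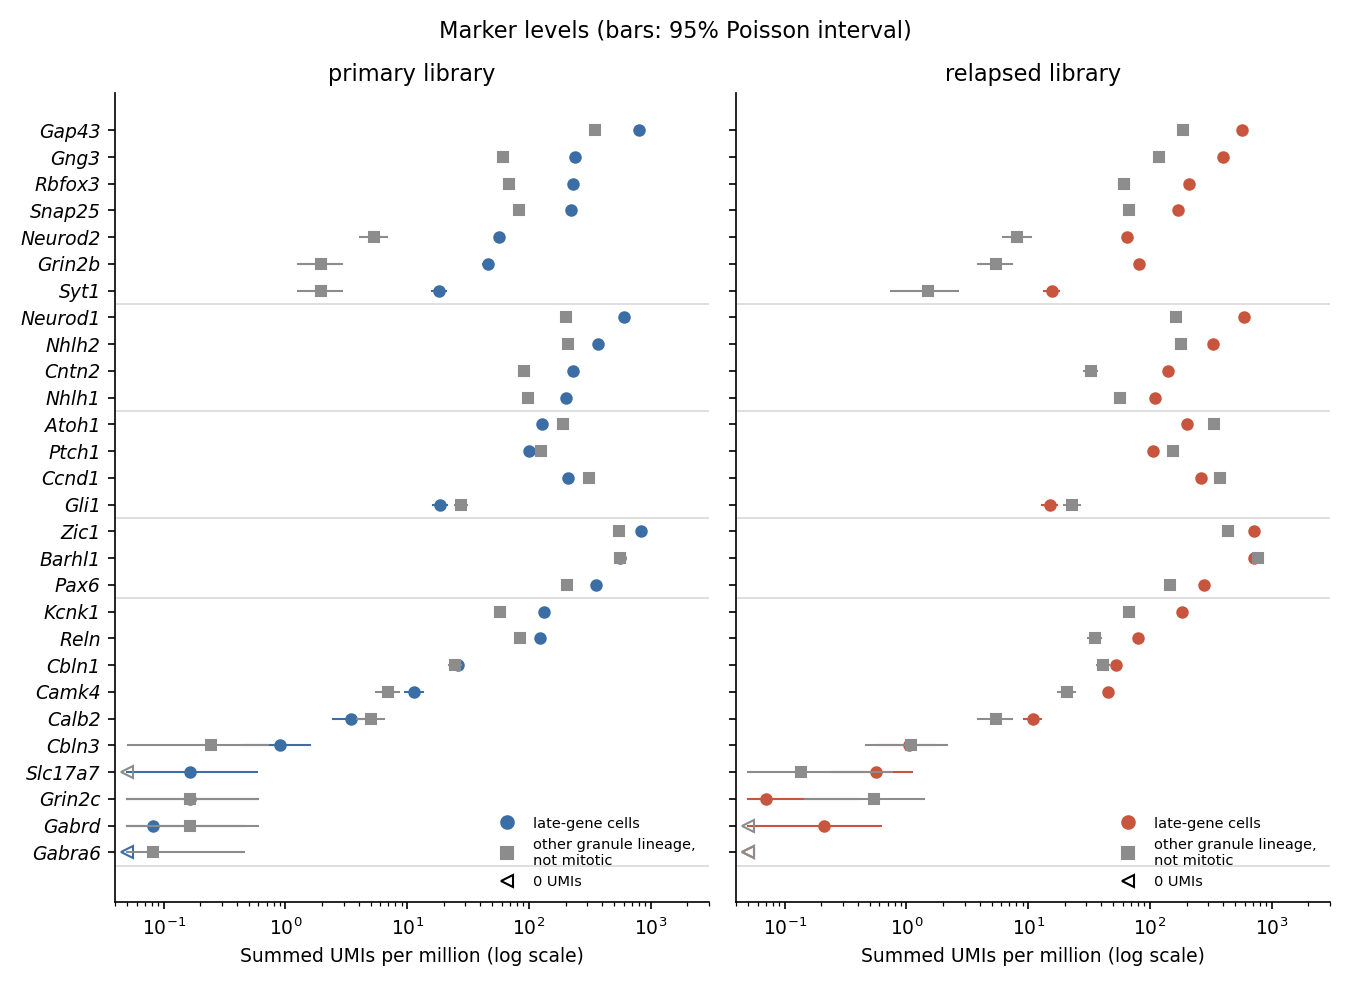
CPM (log axis) of marker genes in late-gene cells (circles) and in other granule lineage cells that are not mitotic (grey squares), 1 panel per library, with 95% Poisson intervals and open triangles for 0 UMIs. Neurod1 and Kcnk1 lie to the right in late-gene cells and Atoh1 to the left, Gabra6 is at 0 UMIs in late-gene cells of both libraries, and the position of the 7 late genes was set by the choice of cells.

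Precursor genes were detected in part of the late-gene cells. Atoh1 had a UMI in 32.4% of primary and 48.7% of relapsed late-gene cells, against 48.4% and 71.5% of non-members and 26.1% and 14.7% of the microglia class. Neurod1 had one in 72.1% and 72.8%, against 46.6% and 61.1% of non-members and 31.1% and 23.5% of the microglia class. Among late-gene cells without 3 markers of another class, 59.8% of the primary and 50.2% of the relapsed cells had Neurod1 alone, 15.9% and 25.9% had both and 13.1% and 17.1% had Atoh1 alone. The remaining 11.1% and 6.72% had neither. Median depth differed between these sets, from 4163 UMIs with Neurod1 alone to 6051 with Atoh1 alone in the primary library and from 4704 with Neurod1 alone to 6357 with both in the relapsed one, and its part in the split was not tested.

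Hedgehog and replication genes were lowest where Neurod1 was detected without Atoh1. Gli1, the readout of Hedgehog signalling, stood in the primary library at 34.3 CPM in cells with Atoh1 alone, 24.4 with both and 7.65 with Neurod1 alone. In the relapsed library Gli1 stood at 22.8, 16.7 and 3.83 in the same order. Ccnd1, the cyclin that Hedgehog signalling maintains in precursors, stood at 399, 240 and 76.3 in primary and 396, 301 and 77.3 in relapsed cells. Mcm6, a subunit of the replicative helicase, stood at 157, 123 and 44.9 and at 177, 154 and 49.1. Genes of the axon and vesicle ran the other way. Stmn2, a regulator of microtubules in growing axons, stood at 827, 1452 and 2440 in primary and 558, 976 and 2167 in relapsed cells. Rab3a, a GTPase of synaptic vesicles, stood at 106, 245 and 533 and at 75.7, 170 and 416. These genes were chosen after their values had been seen.

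A graded picture was seen when cells with few mitotic genes were ordered by their number of late genes at 2000 UMIs each. Cells with markers of another class were kept, and the order is made from the 7 genes of the rule. The part of cell class in these values was not tested. Neurod1 was at 106 CPM in primary cells with none of the 7 and at 1704 in those with 5 or more, and at 107 and 1917 in relapsed cells. Atoh1 went from 178 to 7.04 (1 UMI) in the primary library and from 278 to 32.1 in the relapsed one. Gli1 went from 32.1 to 0 UMIs and from 28.6 to 4.59. The last bin held 71 primary and 109 relapsed cells.

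Pcp4 and Camk4 differed between the libraries along this order. Pcp4, a small calmodulin-binding protein also used as a Purkinje marker, stood at 8.80 CPM with none of the 7 genes and 49.3 (19.8 to 102) with 5 or more in the primary, and at 21.9 and 638 (536 to 753) in the relapsed library. Camk4, a calmodulin-dependent kinase of granule neurons, stood at 6.99 and 7.04 in the primary (1 UMI in the last bin) and at 20.3 and 151 in the relapsed library. Calb2, the calcium-binding protein calretinin, stood at 2.59 and 0 in the primary library and at 4.77 and 36.7 in the relapsed one, where the last bin held 8 UMIs. Of the other Purkinje markers, Foxp2 stood at 55.9 in primary and 39.1 in relapsed late-gene cells, the list with Pcp4 summed to 83.5 and 182, and 1 and 2 of its 8 genes were at 0. At least 3 of the 8 were detected in 2 primary and 5 relapsed late-gene cells, and the part of Purkinje RNA was not tested.

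**Figure D3:**
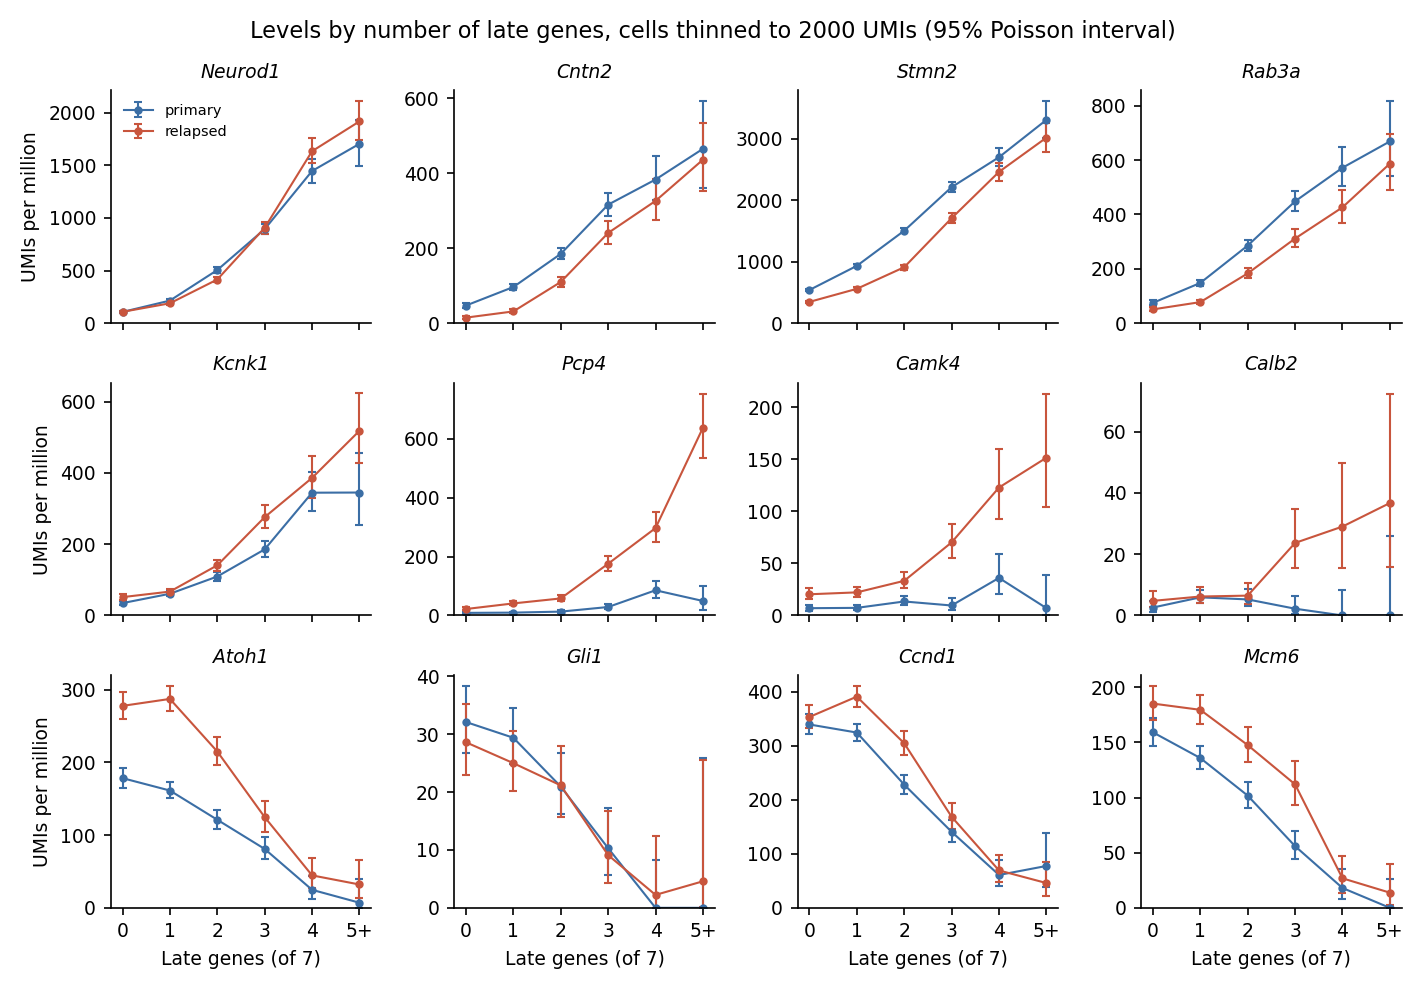
CPM of 12 genes by the number of late genes detected, in cells of any class with at most 2 mitotic genes, each thinned to 2000 UMIs, with 95% Poisson intervals (primary blue, relapsed red). Neurod1 goes from 106 to 1704 in the primary library and from 107 to 1917 in the relapsed one, Atoh1 goes down, and Pcp4 reaches 638 in the relapsed against 49.3 in the primary library.

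Late-gene cells were next set beside the other granule lineage cells of their own library, which are non-members without 3 markers of a class outside the lineage (4997 primary and 3300 relapsed). Since the rule chose the cells within these same data, the contrast is a description. In both libraries 5199 genes had a mean of at least 20 CPM. The mean is over both kinds of cell, so a gene could pass through late-gene cells alone or through the others alone. Of these genes, 111 (2.14%) were at least 2-fold higher and 147 (2.83%) at least 2-fold lower in late-gene cells of both libraries. Late-gene cells with 3 markers of another class were kept in this contrast while such others were not, and without them the numbers were 149 and 161. The markers themselves were higher in late-gene cells, with relapsed pituitary markers at 14117 against 775 CPM and astrocyte markers at 429 against 234. The lower genes were led by genes of mitosis, which the rule also limits. Cdca2, a regulator of chromatin at anaphase, was at 3.42 against 66.4 CPM in the primary library and 2.47 against 45.4 in the relapsed one. Kif2c, a mitotic kinesin, was at 2.69 against 46.9 and 2.68 against 49.6. Against the 2644 and 1336 other cells that were not mitotic, 61 of 5106 genes (1.19%) were higher and 2 (0.0392%) were lower. Those 2 were Ccnb2 and Cenpa, a mitotic cyclin and the histone of the centromere.

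Outside the genes of the rule, Pnoc had the largest smaller ratio of the 2 libraries. This gene, which encodes the precursor of the neuropeptide nociceptin (chr14:65400673-65425472, minus strand), was at 38.7 CPM in primary late-gene cells against 4.34 in the others and at 61.0 against 4.18 in the relapsed library. It was detected in 9.58% and 16.7% of late-gene cells, 1.57% and 2.04% of non-members and 1.96% and 8.82% of the microglia class. Pcsk1n, an inhibitor of prohormone convertase, was at 98.3 against 18.6 in the primary library and 205 against 26.8 in the relapsed one. Both were higher than in non-mitotic cells too, by log2 2.47 and 3.29 for Pnoc and 1.99 and 2.07 for Pcsk1n. These values include late-gene cells with markers of another class. In relapsed late-gene cells without 3 such markers, Pcsk1n was lower. It stood at 40.4 CPM with Atoh1 alone, 61.5 with both Atoh1 and Neurod1, 166 with Neurod1 alone and 97.6 with neither. Pnoc was under 20 CPM in the others of both libraries and so passed the level filter through late-gene cells alone. The same holds for Apc2, Opcml, Elmo1, Necab3, Pdzrn3, Chd3, Wscd2, Arpp21 and Serping1 in the next paragraph.

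Other leading genes had a range of functions. Apc2, a brain relative of the tumour suppressor Apc, was at 42.9 against 9.81 CPM and at 39.0 against 8.52, primary first. Opcml, a cell adhesion molecule, was at 73.0 against 14.7 and 47.6 against 11.2. Elmo1, which acts in Rac signalling, was at 76.0 against 18.9 and 105 against 18.4. Ppp2r2b, a brain subunit of protein phosphatase 2A, was at 63.1 against 16.4 and 102 against 26.2. Cntn2 was at 231 against 63.0 and 141 against 24.7. Rab3a was at 334 against 96.6 and 217 against 66.3. Aplp1, a relative of the amyloid precursor, was at 127 against 39.0 and 150 against 43.6. Necab3, Pdzrn3, Chd3, Wscd2, Arpp21 and Serping1 complete the 15 leading genes, whose weaker log2 ratio lay between 1.63 and 3.16.

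Early differentiating cells were much closer. Of 5149 genes, 15 (0.291%) were at least 2-fold higher in late-gene cells than in early cells in both libraries, and 1 (0.0194%), Cenpa, was lower. Of the 15, 5 were genes of the rule, and Pnoc, Pcsk1n, Elmo1, Apc2 and Arpp21 were among the others. Meg3, Fabp7, Apoe and Mt3 were also among them, but late-gene cells include some with markers of another class and early cells do not. The same limit holds for Pcsk1n, whose relapsed level was higher with such cells than without them. Against Atoh1 precursors, 149 of 5080 genes (2.93%) were higher and 13 (0.256%) lower. Atoh1 itself was lower, at 129 against 388 in the primary library and 203 against 483 in the relapsed one, and so was Gas1, a Hedgehog coreceptor, at 18.7 against 40.9 and 50.7 against 110. Atoh1 was used to define the precursors.

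By function, genes of synapse, axon and RNA processing were higher in late-gene cells than in non-mitotic cells and cell cycle genes lower. Counts below are of listed genes that reached the level filter, so they are not all the listed genes. The filter took the mean of late-gene cells and the others, so a gene could pass through late-gene cells alone, as Syp below did. The tallies are thus a description. They use the weaker ratio of the 2 libraries, set to 0 where the libraries differ in sign, with the median over all 5106 genes at 0. Among all 5106 genes, 2335 were higher and 1729 lower in both libraries. Of 15 genes of synaptic vesicles and release, 13 were higher in both libraries and 4 past 2-fold, with a median log2 ratio of 0.62. Synpr, a vesicle protein, was at 55.3 against 21.4 CPM in the primary library and 80.1 against 27.9 in the relapsed one. Syp, synaptophysin, was at 39.7 against 17.3 and 30.8 against 11.8. Of 8 postsynaptic genes 7 were higher and 2 past 2-fold, with a median of 0.75. Dlgap1, a scaffold of the postsynaptic density, was at 88.8 against 42.9 and 35.7 against 17.6. The 2 glutamate receptor genes that reached the filter, Gria2 and Gria4, subunits of AMPA receptors, were higher by less than 2-fold in the weaker library, with log2 0.87 and 0.95.

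Of axon growth and cytoskeleton genes, 23 of 25 were higher and 3 past 2-fold, with a median of 0.60. Dpysl3, which acts in growth cones, was at 110 against 40.4 CPM and 79.5 against 31.6. Mapt, which encodes tau, was at 94.8 against 40.7 and 73.8 against 33.1. Of 19 migration and early differentiation genes 17 were higher and 2 past 2-fold, with a median of 0.49. The 2 were Neurod1, at 601 against 202 and 597 against 162, and Cntn2. All 12 neuronal RNA-binding or noncoding genes that reached the filter were higher in both libraries and 2 past 2-fold, Celf4 and Celf3, both splicing regulators, with a median of 0.66. Among transcription regulators, 12 of 17 were higher, 1 past 2-fold (St18, at 53.3 against 20.1 and 57.7 against 17.2), and the median was 0.14. Axon guidance genes had a median of 0.09 over 4 genes and voltage-gated channels 0.33 over 5.

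Cell cycle, Hedgehog and ribosomal genes lay on the other side. All 28 G1/S genes that reached the filter were lower in both libraries, 0 past 2-fold, with a median of -0.45. Mcm6 was at 91.8 against 148 CPM in the primary and Uhrf1, which maintains DNA methylation, at 30.8 against 51.0. The list was less lowered in the relapsed library, with a median of -0.46 against -0.62 in the primary one. All 15 G2/M genes outside the rule were lower, 2 past 2-fold, with a median of -0.70. Of 10 Hedgehog pathway genes 9 were lower, 0 past 2-fold, with a median of -0.37. Gas1 was at 18.7 against 30.2 and 50.7 against 96.6, and Ccnd1 at 209 against 310 and 261 against 377, while Sufu, an inhibitor of the pathway, was the 1 higher gene. All 46 ribosomal protein genes were lower, 0 past 2-fold, with a median of -0.22, but set against all other lineage cells, mitotic ones included, their median was 0. Oxidative phosphorylation (37 genes) and glycolysis (12) had medians of 0 and -0.09.

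**Figure D4:**
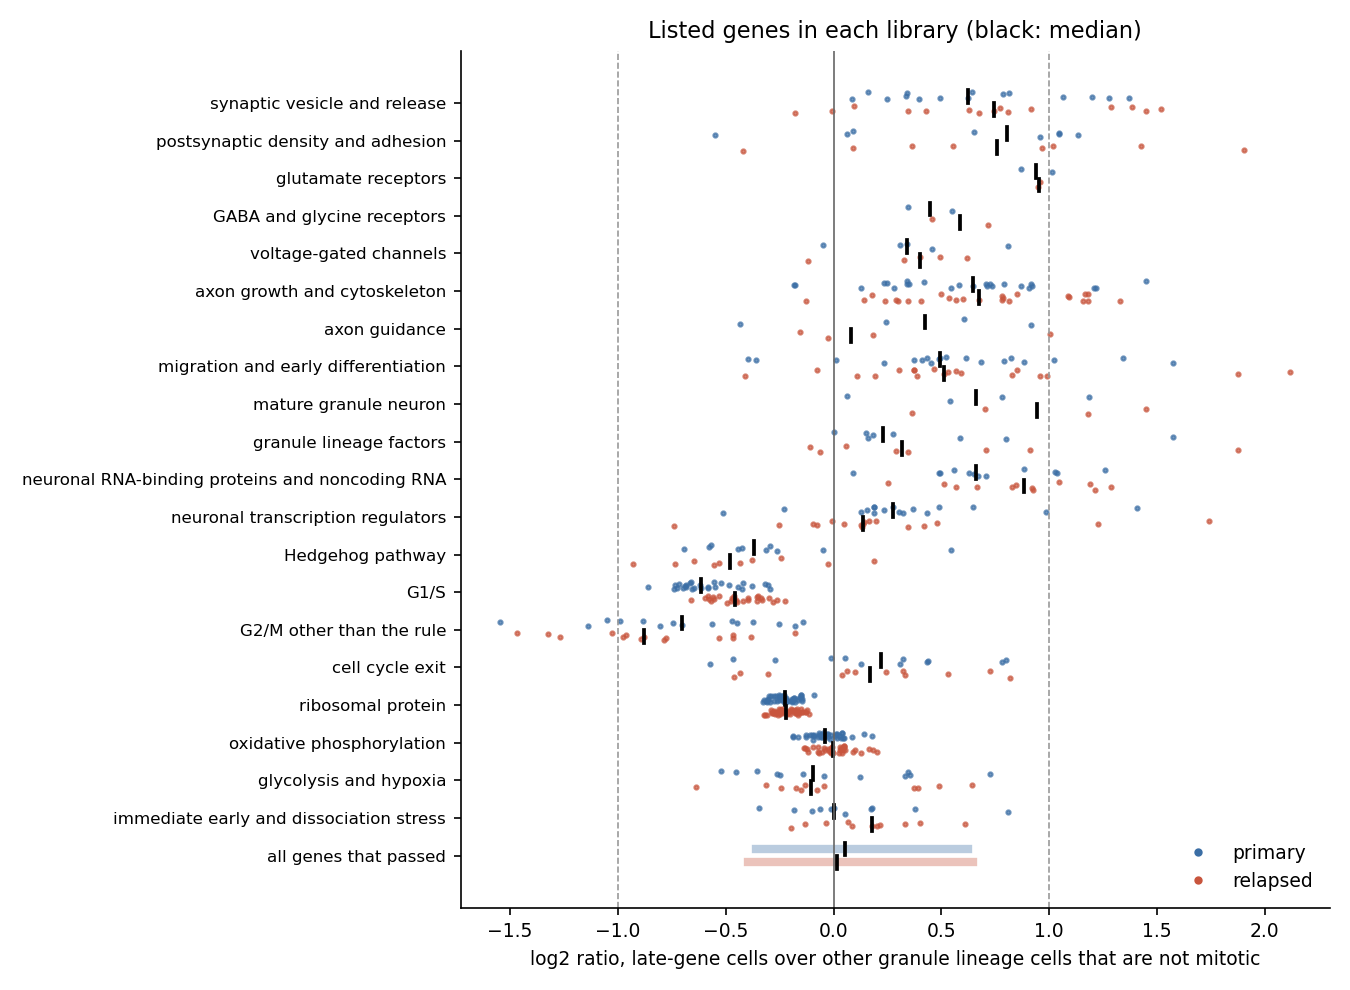
Log2 ratios of listed genes in late-gene cells over other granule lineage cells that are not mitotic, 1 point per gene and library (primary blue, relapsed red), with medians in black, dashed lines at 2-fold, and a bar from the 5th to the 95th percentile for all genes that passed the level filter. Synaptic, axon and RNA-binding genes lie to the right of 0, and G1/S, G2/M and most Hedgehog genes to the left.

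Relapsed late-gene cells were then set against primary ones. Of 5738 genes, 168 (2.93%) were at least 2-fold higher and 177 (3.08%) at least 2-fold lower in the relapsed cells, where the median gene lay at log2 -0.10. Centred on that median, the numbers were 211 and 132. Many of the most extreme ratios were of genes whose UMIs lay mostly in cells with markers of another class, and others were not. On the higher side were pituitary hormone genes. Gh, Prl, Cga and Pomc together had 199496 UMIs in relapsed late-gene cells, of which 40444 were in 2 cells. The 68 relapsed late-gene cells with at least 3 pituitary markers (3.16%) held 69.4% of the Gh, 94.3% of the Prl, 86.0% of the Meg3 and 56.5% of the Fos UMIs of the class. A Gh or Prl UMI was found in 70.1% of relapsed late-gene cells, 76.1% of non-members and 91.2% of the microglia class, against 0.525% of primary late-gene cells.

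On the lower side, Mndal had the lowest ratio, and Ren1, Xist, Mgl2, Gdpd3 and Rbm45 were among the 15 lowest, with between 18.8% and 27.4% of their primary UMIs in cells with markers of another class. Haemoglobin and microglial genes were there too. The 4 globin genes had 8448 UMIs in primary late-gene cells, 8335 of them in 2 cells, and the 39 primary late-gene cells with microglial markers carried most of C1qa, C1qb and C1qc. Summed over the whole marker list, pituitary markers stood at 4.89 CPM in primary and 14117 in relapsed late-gene cells, with 8 of 10 at 0 UMIs in the primary. Microglial markers stood at 280 and 15.4, erythrocyte markers at 691 and 6.56, astrocyte markers at 355 and 429 and oligodendrocyte precursor markers at 804 and 1091, mostly C1ql1 (617 and 883). The part of these cells in the remaining differences was measured by leaving out every late-gene cell with at least 3 markers of a class outside the lineage. This marker count is loose for astrocytes and oligodendrocyte precursors, since C1ql1 stood at 499 and 723 CPM even in the other lineage cells, so a removed cell need not be of another class. That removed 17.6% and 24.7% of late-gene cells and left 1884 and 1623, which made up 20.7% of each library.

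In the 1884 and 1623 remaining cells, 164 of 5707 genes (2.87%) were at least 2-fold higher and 194 (3.4%) lower in the relapsed library, with 138 and 153 of them shared with the counts over all late-gene cells. The values below are for these cells, with the other granule lineage cells of the same 2 libraries beside them, which share the library as a source. Pituitary markers still summed to 2821 CPM in these relapsed cells. Gh stood at 0 UMIs in primary and 2066 CPM in relapsed cells, and at 444 in the other relapsed lineage cells. The Y-linked genes Eif2s3y and Ddx3y stood at 0 UMIs in primary and at 122 and 54.3 CPM in relapsed cells.

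Several genes of neurons were higher in the relapsed cells, some of them by no more than in the other lineage cells. Pcp4 (chr16:96467606-96525793, plus strand) was at 21.0 CPM (18.2 to 24.2) in primary and 154 (146 to 162) in relapsed cells, and at 6.50 and 20.6 in the other lineage cells. Camk4 was at 10.3 and 53.1, against 7.45 and 23.6. Zic2, a zinc finger factor of the lineage, was at 5.82 and 35.8, against 4.31 and 21.7. Syn2, a synapsin, was at 15.7 and 47.2, against 11.7 and 24.3, and Cbln1 at 26.0 and 55.9, against 30.2 and 44.5. Sox4, a factor of early neuronal differentiation, was at 297 and 811, against 183 and 494. Rnd2, a GTPase of neuronal migration, was at 117 and 327, against 74.9 and 228. The log2 ratios of Sox4 (1.45 against 1.43) and Rnd2 (1.48 against 1.61) were close to those of the other lineage cells. In each of these genes the primary and relapsed intervals were apart, but these cover counting error only. The spread between tumours was not measured.

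Other genes higher in the relapsed cells showed ratios of like size or larger in the other lineage cells. Tlx3, a homeobox factor, was at 13.6 and 69.6 CPM in late-gene cells and 11.1 and 74.0 in the others. Cdkn2a, a cell cycle inhibitor, was at 10.7 and 50.3, against 19.7 and 80.9. Ak1, adenylate kinase, was at 6.77 and 51.8, against 2.39 and 51.9, and Alyref, an mRNA export factor, at 19.4 and 128, against 34.9 and 228. Gas1 was at 14.9 and 46.4, against 44.9 and 123. Gapdh, a glycolytic enzyme, was at 1238 and 2735, against 1631 and 3375.

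Other genes of neurons were lower in the relapsed cells. Stmn4, a microtubule regulator, was at 483 CPM (469 to 497) in primary and 153 (145 to 161) in relapsed cells, against 161 and 64.5 in the others. Sv2b, a synaptic vesicle protein, was at 64.8 and 27.7, against 44.2 and 12.6. Dlgap1 was at 91.4 and 41.8, against 41.0 and 24.0. Miat, a noncoding RNA, was at 235 and 84.4, against 106 and 26.2, and Nefl, the light neurofilament, at 31.4 and 10.8, against 9.10 and 1.49. Xist had the lowest ratio among the named genes with UMIs in both libraries, at 1643 and 7.36. Mndal, an interferon-inducible gene, was at 86.6 CPM and 0 UMIs, and Ren1, renin, at 223 and 1.07, against 226 and 1.97 in the others.

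By list, the medians lay between -0.25 and 0.72. Synaptic vesicle genes had a median log2 ratio of 0.03 over 22 genes, with 1 higher (Syn2) and 1 lower (Sv2b) past 2-fold, where all genes had -0.08. Axon growth genes had -0.24 over 29, with 0 higher and 2 lower past 2-fold. Migration genes had -0.12 over 21, with Sox4 and Rnd2 past 2-fold higher. Mature granule genes had 0.72 over the 6 that reached the filter, with 2 higher (Camk4 and Cbln1) and 1 lower (Nefl) past 2-fold, and 0.42 in the other lineage cells. Hedgehog genes had 0.42 over 10, with 1 higher past 2-fold (Gas1). G1/S genes had 0.19 over 27, ribosomal protein genes 0.05 over 46 and oxidative phosphorylation genes -0.04 over 37, with 0 past 2-fold in each.

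**Figure D5:**
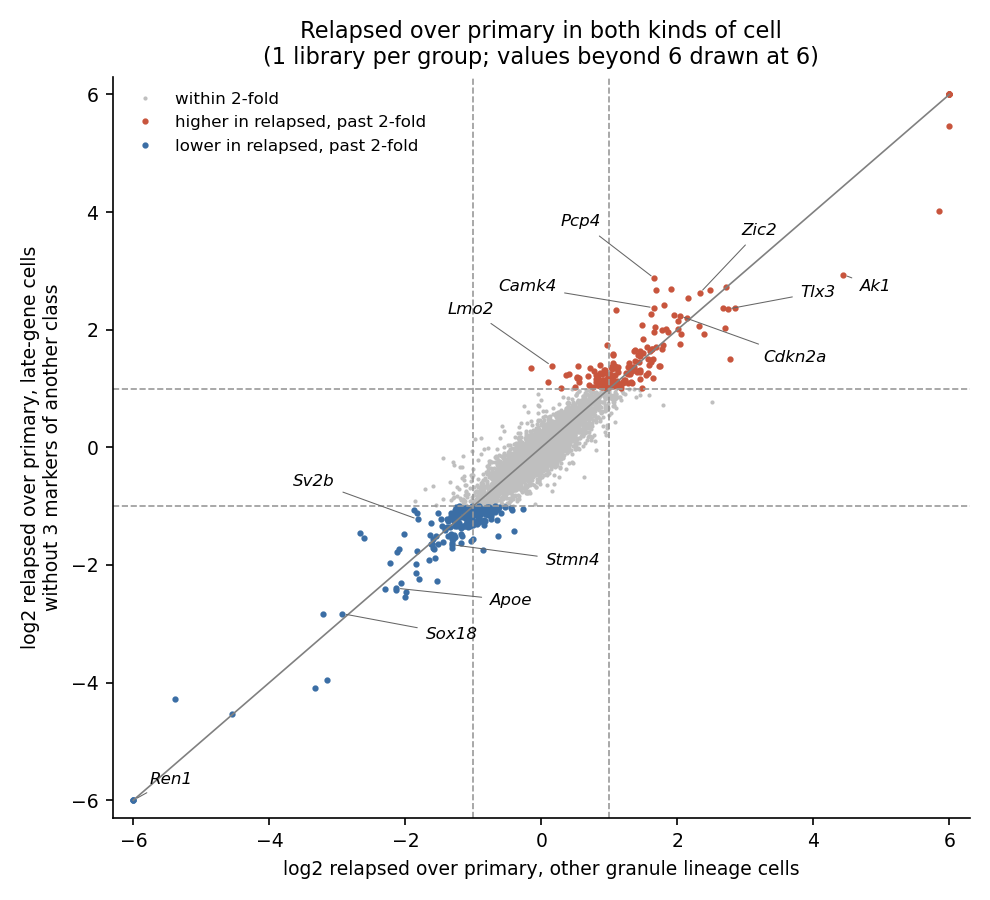
Log2 ratio of relapsed over primary for each gene in late-gene cells without 3 markers of another class (vertical) and in other granule lineage cells (horizontal), with dashed lines at 2-fold and the diagonal for equal ratios. Pcp4 and Camk4 lie above the diagonal and Ak1 below it, and both axes come from the same 2 libraries.

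A few genes had ratios between the libraries that were unlike those of the other lineage cells. These were picked after the values had been seen and the differences were not tested. Lmo2, a transcriptional cofactor, was at 17.4 and 45.5 CPM in late-gene cells and 20.6 and 22.9 in the others. Camk2d, a calmodulin-dependent kinase, was at 87.9 and 113, against 36.1 and 24.2. Calb2, which did not reach the level filter, was at 2.96 and 12.9, against 7.73 and 4.46. Ppp1r14c, an inhibitor of protein phosphatase 1, was at 262 and 161, against 97.8 and 29.8. Of 11 immediate early and stress genes that reached the filter, which dissociation can raise, 1 was past 2-fold higher in the relapsed cells and 2 lower. Jund was at 282 and 728, Hsph1, a heat shock protein, at 50.9 and 23.5, and Btg2, an early response gene, at 109 and 45.9. Fos, below the filter, was at 2.64 and 20.6, and the part of dissociation was not tested.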

How the data were processed

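Single cells of 1 primary and 1 relapsed tumour were used, with UMI counts per gene and cell as the authors deposited them; per the labels' protocols the cells were partitioned on a Chromium Controller. The submitters' processing notes list Cell Ranger, STAR, Seurat and mm10 without saying how or in which version each was used. The bulk astrocyte libraries were not analysed here. A cell needed 500 genes or more and no more than 10% of its UMIs on mitochondrial genes, which 9094 of 9164 and 7839 of 7852 barcodes met. No doublets were removed in the main values.

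UMIs were summed over cells and scaled to 1000000 (CPM). Intervals are exact Poisson or Clopper-Pearson at 95% (scipy 1.17.1, pandas 2.3.3, scanpy 1.11.5 for Scrublet, Python 3.11.15). A gene was counted past 2-fold with a mean of at least 20 CPM, and a count of 0 was set to 3 UMIs for a ratio. No test was made, since each group is 1 library and cells are not replicates. A class outside the granule lineage was called in a cell by at least 3 of its markers.

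The members, the 20 gene lists and the marker lists were chosen with earlier results of these data known. Named genes are those of the rule, the extremes or most abundant gene of each list, the markers, and the 15 highest and lowest ratios of each comparison, leaving out mitochondrial genes and unnamed gene models. Others are said to be chosen after seeing values, as are the ones shown along the order of late genes, Nefl, Gapdh and Jund. Ratios and intervals were tested on simulated data. Coordinates are of GENCODE M21 on mm10, matched by symbol, and promoters of RefSeq on GRCm38.p6. Alternatives were other filters, depths, thresholds, scalings and doublet removal.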

Additional observations from a re-analysis of the deposited data

Results flagged for a closer look

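Fabp7 and Igfbp7 moved in opposite directions between the libraries in late-gene cells and in the other granule lineage cells, and the difference was not tested. Fabp7, a fatty acid binding protein of glia, had a log2 ratio of relapsed over primary of 1.64 in late-gene cells and -1.46 in the others. Late-gene cells with markers of another class held 97.2% of its relapsed and 70.2% of its primary UMIs, and without them its ratio was -1.58. Igfbp7, a secreted binding protein of vessels and other cells, had 4.22 against -1.43. Cells with markers of another class held 95.02% of its relapsed UMIs in late-gene cells, and without them 4 primary and 46 relapsed UMIs were left.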

How the results depend on the processing

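With 1 library per group, no library could be left out. No paired analysis was possible because each group has 1 library and no result comes from a test. In the thinned settings the mitotic limit was read on the thinned counts too, so some cells above it at full depth were let in. The share of late-gene cells, primary and then relapsed, was 10.7% and 11.3% at 2000 UMIs, 17.5% and 19.0% at 4000 (2624 and 663 cells left out), 11.1% and 14.4% with at least 4 of 7 genes, 3.77% and 6.89% with at least 5, 13.9% and 15.8% with 0 mitotic genes, and 20.7% in each without cells of another class. Against other granule lineage cells, the 111 higher genes became 260 at 2000 UMIs, 200 with at least 4 of 7 genes and 310 (with 227 lower in place of 147) with at least 5. Higher and lower genes were 61 and 2 against non-mitotic cells, a comparison added after seeing the data, 49 and 71 from 50 CPM, 1206 and 393 with no filter, and 315 and 295 at 1.5-fold. The higher share of calls was 43.0%, and 96.8% against non-mitotic cells, 56.4% at 2000 UMIs, 52.7% at 4000, 55.1% and 57.7% with at least 4 and 5 genes, and 75.4% with no filter. Between the libraries, the 168 higher and 177 lower genes became 78 and 72 from 50 CPM, 1542 and 1696 with no filter and 456 and 696 at 1.5-fold. The higher share was 48.7%, and 61.5% (211 and 132) centred on the median.

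Some log2 ratios of relapsed over primary changed sign, and the cause was not tested. Igfbp7 was at -0.44 at 2000 UMIs, -2.58 with at least 4 of 7 genes and -0.11 with 0 mitotic genes. At 2000 UMIs Resp18 was at -1.18 and Meg3 at -0.67. Hbb-bt was at 0.73 at 2000 UMIs, 1.16 and 0.67 with at least 4 and 5 genes, 1.01 without cells of another class and 0.44 without hormone, immune, red and vascular cells (added after seeing the data). Hba-a2 was at 1.47 at 4000 UMIs, 0.95 and 1.26 with at least 4 and 5 genes, 1.44 with 0 mitotic genes, 0.36 without cells of another class and 0.65 in the added setting. Hba-a1 was at 0.35, 0.085, 0.86, 0.37 and 0.56 under the same settings after 4000 UMIs. The remaining 48 values of the shares and counts moved by less than their interval or, for counts, 1.5 times. Among single genes and lists 1261 values stayed within a limit, 555 moved past it, and 21 changed sign. For single genes between the libraries the limit was the counting interval. For list medians and for ratios against other lineage cells it was a fixed log2 margin, which does not measure counting error. Leaving out the highest 6% of Scrublet scores removed 546 and 470 cells, 5.56% and 3.30% of late-gene cells against 6.15% and 7.02% of the others. Its automatic threshold marked 0 cells in both libraries, so the caller did not work there and doublets are in the values given. Depth limits genes under 20 CPM, where counts of a few UMIs decide a ratio.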
